A study of Rattus norvegicus with 40 samples.

Results

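The data were whole-transcript array signals from the hippocampi of 4 female rats exposed to 750 ppm lead around birth and 4 female control rats, 8 of the 40 arrays of a study of sex, dose and exposure window. Dams of the exposed rats ate chow with lead acetate from 10 days before mating until their pups were weaned, and the pups then ate control chow until they were killed at postnatal day 55. The control females had control chow throughout and were killed at the same age. The 8 arrays were taken by label, with title numbers 1978 to 1981 for the exposed females and 1974 to 1977 for the controls. This was the only exposed group whose title numbers lay in the range of the controls. Further groups of 4 arrays were used for 3 comparisons: males exposed to 750 ppm in the same perinatal window, females exposed perinatally to 250 ppm, and females given 750 ppm in the chow from birth until postnatal day 45. Male controls had control chow. The labels gave the sex, dose, window and tissue, and the strain is not given in the sources used here.

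Lead is a neurotoxic metal that mimics calcium in synaptic signalling and displaces zinc from proteins, and the developing hippocampus, which serves learning and memory, is one of its known targets. The hippocampus also carries a high density of receptors for glucocorticoids, the stress hormones of the adrenal gland, which enter the nucleus with their receptor and switch on a recognisable set of genes. Metallothioneins are small cysteine-rich proteins that bind zinc and other heavy metals and are induced both by metals and by glucocorticoids.

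Each array used 100 ng of total RNA and gave a log2 signal for 29214 probe sets. Pairs of the 8 arrays had correlations of 0.9939 to 0.9969, and the SD within each group had a median of 0.103 log2. Of 13 measured markers of hippocampal pyramidal and dentate granule cells, 11 lay above the median of every array on all 8 arrays. The sex-linked transcript Eif2s3, a translation initiation factor subunit that is higher in females, did not match the label on every control array. It read 11.65, 11.67, 11.62 and 11.71 in exposed replicates 1 to 4, against 11.28, 11.60, 11.30 and 11.76 in control replicates 1 to 4. Control replicates 1 and 3 thus lay in the range of the male arrays, and male control replicate 4, at 11.69, lay in the range of the females. The labels were kept, and results are also given without these 3 arrays. The labels do not tell whether the rats of a group had different mothers, and the p-values measure only the spread between arrays within groups. Except where a restricted fit is named, that spread was estimated from all groups of the study together, not from these 8 arrays alone. In whole tissue, fewer cells of a type and less RNA per cell cannot be told apart.

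Perinatal exposure to 750 ppm went with higher signal of a small set of genes. These were transcripts best known from liver (Mup, Alb, Apoc3) and genes known to be induced by glucocorticoids (Gpd1, Slc19a3, Sult1a1, Hif3a, Tsc22d3). Others were single genes of varied known roles, such as Fam83d, Lims2, Ret and Ldaf1. With limma and Benjamini-Hochberg adjustment over all probe sets, 46 probe sets (0.157% of those tested) passed an adjusted p of 0.05, 43 of them higher (0.147%) and 3 lower (0.0103%). The higher ones differed by 0.22 to 1.77 log2 units, with a median of 0.56. In 42 of the 43, all 4 exposed values lay above all 4 control values, which held in that direction for 2.58% of all probe sets. Lfng, which modifies Notch receptors, was the exception. Of the 46, 23 carried 1 gene symbol, 8 carried several symbols of the Mup family and 15 carried none. At an unadjusted p under 0.05 there were 1698 probe sets (5.81%).

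**Figure D1:**
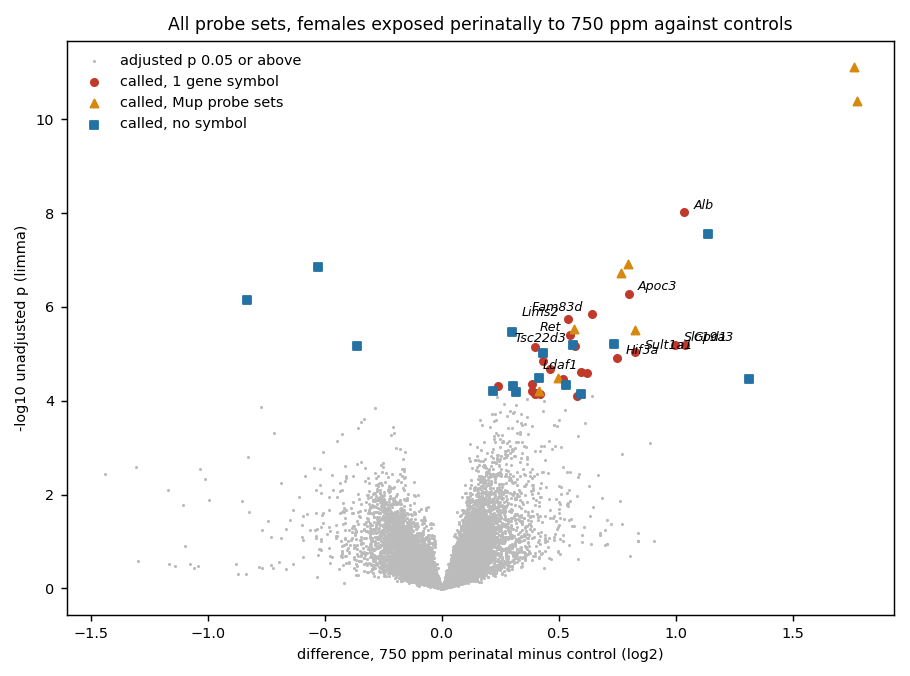
Difference between exposed and control females (horizontal axis, log2, exposed minus control) against the unadjusted p of the limma test (vertical axis, minus log10) for all 29214 probe sets. Called probe sets are coloured by their annotation, and 43 of the 46 lie on the right, with the Mup probe sets and Alb at the top.

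The strength of these calls depended on which arrays were in the fit. Leaving out each of the 8 arrays in turn gave between 17 and 50 called probe sets. The counts were 19 without exposed replicate 3, 17 without exposed replicate 4, 29 without exposed replicate 2, 26 without control replicate 1 and 21 without control replicate 3. In 13 of the 46 the call held whichever 1 of the 8 arrays was left out, and these were Alb, Apoc3, Fam83d, Lims2, 6 Mup probe sets and 3 probe sets with no symbol. Without the 3 control arrays whose sex-linked signal did not match, 6 probe sets remained called, namely Alb, Lims2, the Mup probe sets 10877295, 10877286 and 10877229, and probe set 10700576. All 46 kept their direction there, with differences of 0.698 to 1.23 times the original. Each of these fits still took the spread from all groups of the study. A fit of the 8 compared arrays alone called 14 probe sets, all among the 46. In that fit Alb, Apoc3 and Mup probe set 10877295 lost their calls.

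The largest differences were in the major urinary proteins, small lipocalins that the liver secretes and that carry pheromones in rodent urine. Their genes are near-identical copies, so the probe sets name several symbols each (Mup4, Mup5, Obp3 and others) and no single copy can be named. Probe set 10877295 read 5.44, 5.36, 6.94 and 5.62 in exposed replicates 1 to 4, against 3.99, 3.85, 4.22 and 4.25 in control replicates 1 to 4. The exposed values lay more than a log2 unit above every control, and exposed replicate 3 stood highest. The signal was low, with group means of 5.84 and 4.08, both below the lowest array median of 6.96. The difference was 1.76 (SE 0.18, adjusted p = 2.22e-07), and that of probe set 10877286 was 1.77 (SE 0.19, adjusted p = 5.99e-07). Both SEs pool the spread of all 10 groups, which was uneven. The SD of 10877295 was 0.74 in the exposed females and 0.19 in the controls. In a limma fit of the 8 arrays alone the call of 10877295 was lost (adjusted p = 0.134). The weakest adjusted p of 10877286 among the alternative limma fits was 0.163. All 11 Mup probe sets with several symbols lay above the control mean, by 0.15 to 1.77, and 8 were called. The only probe set with the single symbol Mup5 differed by -0.01. Without exposed replicate 3, probe set 10877295 still differed by 1.40.

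Alb, which encodes serum albumin, read 6.92, 6.66, 7.82 and 7.09 in the exposed females, against 5.86, 6.24, 6.07 and 6.18 in the controls, with no overlap. The difference was 1.04 (SE 0.14, adjusted p = 9.27e-05). Apoc3, an apolipoprotein of triglyceride-rich particles, read 6.70, 6.68, 7.63 and 7.38 in the exposed females, against 6.25, 6.31, 6.22 and 6.42 in the controls. It differed by 0.80 (SE 0.13, adjusted p = 0.00191), again without overlap. Exposed replicate 3 had the highest value of both genes. When the fit was restricted to the 8 arrays of these groups, the calls of Alb (adjusted p = 0.238), Apoc3 (adjusted p = 0.404) and Mup probe set 10877295 (adjusted p = 0.134) were lost. Without exposed replicate 3, Alb differed by 0.81 and Apoc3 by 0.62.

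Other liver transcripts did not move to the same extent. Of 30 measured genes of plasma proteins and liver enzymes, 19 lay above and 11 below the control mean, and Alb and Apoc3 were the 2 that were called (0.152% of the 14511 genes with 1 symbol were). Their median difference was 0.13, beside 0.01 over all genes, and 10 had an unadjusted p under 0.05 on the higher side (5.09% of all genes). Apoh, a phospholipid-binding plasma protein, was at 0.35 (adjusted p = 0.124) and the plasma protein Ahsg at 0.25 (adjusted p = 0.686). Rbp4 was at 0.50, Fabp1 at 0.35 and Serpina1 at 0.28 (adjusted p = 0.527, 0.226 and 0.652 by limma). Apoa1, the main protein of high-density lipoprotein, was at -0.04, haptoglobin (Hp) at 0.00 and the fibrinogen chain Fga at -0.01. The mean signal of the list was 5.74, 5.71, 5.98 and 5.76 on the exposed arrays, against 5.62, 5.69, 5.60 and 5.62 on the control arrays. These means lay below the lowest array median of 6.96, and a small difference at low signal says little. The part that RNA of liver origin might play in these values was not tested.

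**Figure D2:**
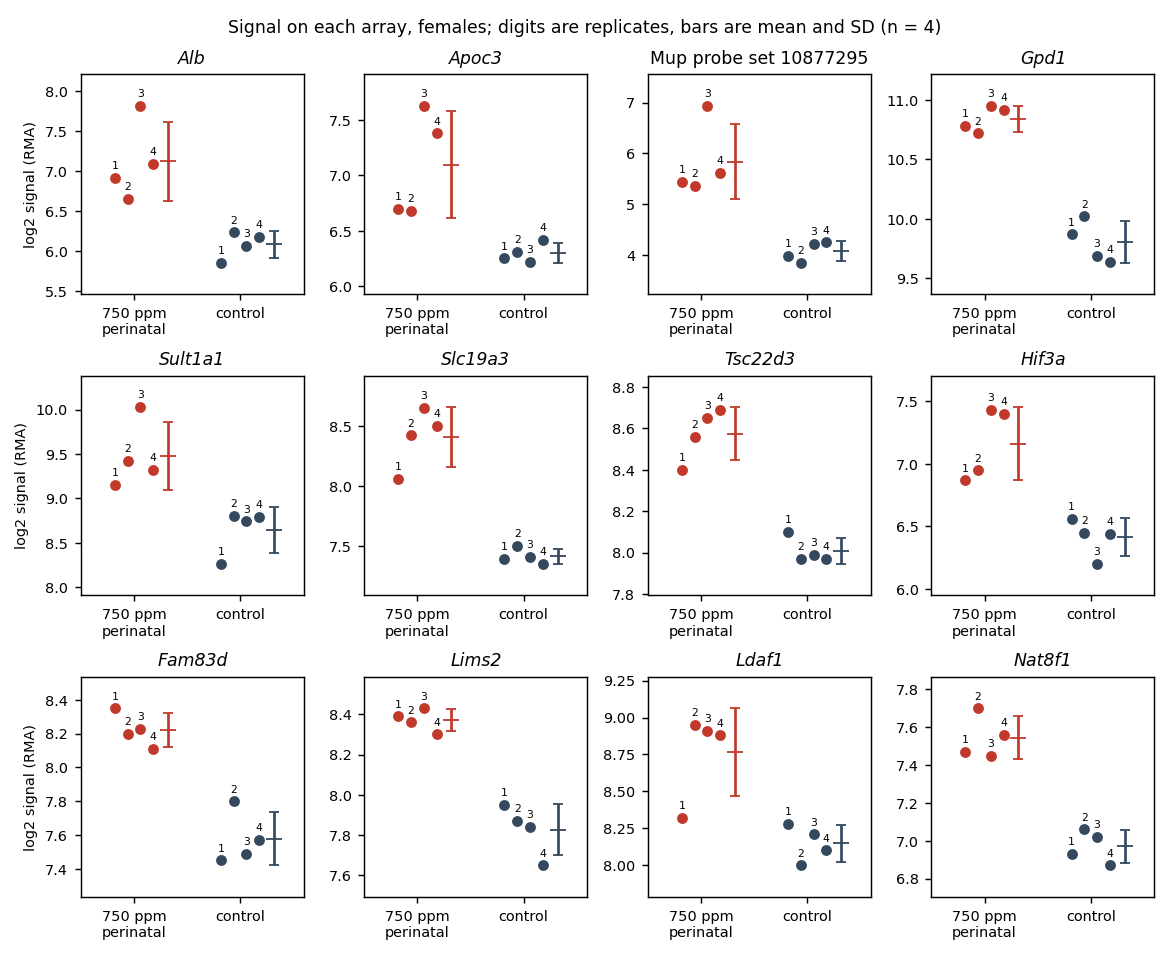
Log2 signal of 12 genes or probe sets (vertical axes) on each array of exposed and control females. Points are arrays numbered by replicate and bars give the mean and SD (n = 4). In every panel the exposed values lie above the control values, and exposed replicate 3 is the highest for Alb, Apoc3, the Mup probe set, Gpd1, Sult1a1, Slc19a3, Hif3a and Lims2.

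Genes known to be induced by glucocorticoids formed the second group. Gpd1, the cytosolic glycerol-3-phosphate dehydrogenase that links sugar and lipid metabolism, read 10.78, 10.72, 10.95 and 10.92 in the exposed females, against 9.87, 10.02, 9.69 and 9.64 in the controls. The difference was 1.04 (SE 0.20, adjusted p = 0.00946), and the groups were far apart relative to their spread. Slc19a3, which carries thiamine into cells, read 8.06, 8.42, 8.65 and 8.50 in the exposed females, against 7.39, 7.50, 7.41 and 7.35 in the controls, a difference of 0.998 (SE 0.19, adjusted p = 0.00946). Tsc22d3 encodes GILZ, a leucine zipper protein that mediates anti-inflammatory actions of glucocorticoids. It read 8.40, 8.56, 8.65 and 8.69 in the exposed females, against 8.10, 7.97, 7.99 and 7.97 in the controls, and differed by 0.57 (SE 0.11, adjusted p = 0.00946). None of the 3 genes had overlapping groups.

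Sult1a1, a sulfotransferase that adds sulfate to phenols, steroids and drugs, read 9.15, 9.42, 10.03 and 9.32 in the exposed females, against 8.26, 8.80, 8.74 and 8.79 in the controls. It differed by 0.83 (SE 0.16, adjusted p = 0.0117). Hif3a, a hypoxia-inducible factor subunit that restrains its relatives, read 6.87, 6.95, 7.43 and 7.40 in the exposed females, against 6.56, 6.45, 6.20 and 6.44 in the controls. It differed by 0.75 (SE 0.15, adjusted p = 0.0142), and both genes were higher on all 4 exposed arrays than on any control. All 5 genes kept their direction in every alternative fit. None of the 5 stayed called without exposed replicate 3 (adjusted p = 0.0583 for Gpd1, 0.0705 for Slc19a3, 0.0617 for Tsc22d3, 0.114 for Sult1a1 and 0.114 for Hif3a). Leaving out exposed replicate 4 also ended the calls of Gpd1, Slc19a3, Tsc22d3 and Hif3a, leaving out control replicate 3 those of Gpd1 and Hif3a, and leaving out control replicate 1 that of Sult1a1.

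Among all 27 measured genes of the glucocorticoid-induced list, 23 lay above and 4 below the control mean. The 5 genes just described were called, 19 had an unadjusted p under 0.05 on the higher side, and the median difference was 0.30. Over all genes 0.152% were called, 5.09% were higher at that unadjusted p, and the median was 0.01. The list was drawn up with results of these arrays known, so its direction is not independent evidence. The chaperone Fkbp5, which dampens the glucocorticoid receptor, lay just outside the threshold at 0.43 (SE 0.10, adjusted p = 0.0851), with 8.72, 8.85, 9.04 and 8.85 in the exposed females, against 8.43, 8.36, 8.55 and 8.38 in the controls. Sgk1, a kinase that acts on ion channels, was at 0.42 (adjusted p = 0.547), and Ddit4, an inhibitor of mTOR signalling, at 0.34 (adjusted p = 0.124). The transcription factor Zbtb16 was at 0.29 (adjusted p = 0.357), the clock gene Per1 at 0.23 (adjusted p = 0.7) and the pyruvate dehydrogenase kinase Pdk4 at 0.49 (adjusted p = 0.633). Dusp1, a phosphatase of MAP kinases that neuronal activity induces as well, was at -0.25 and Klf9, a transcription factor, at -0.07. The mean of the list was 8.94, 8.998, 9.17 and 9.14 on the exposed arrays, against 8.80, 8.83, 8.57 and 8.74 on the control arrays, without overlap.

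The receptors for these hormones differed little. The mineralocorticoid receptor Nr3c2 read 11, 11.08, 11.11 and 11.03 in the exposed females, against 11.32, 11.30, 11.15 and 11.16 in the controls (-0.18, adjusted p = 0.427). The glucocorticoid receptor Nr3c1 was at -0.10 (adjusted p = 0.906), and Hsd11b1, which regenerates active corticosterone, at 0.01. Of 13 measured steroid receptor and corticosteroid genes, 5 lay above and 8 below the control mean, with a median of -0.05 and 0 called by limma. On the lower side 1 of them, Nr3c2, had an unadjusted p under 0.05 (1.48% of all genes).

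Promoters of these genes were searched for the palindromic core of the glucocorticoid response element (both strands), its half-site (TGTTCT, both strands), the E-box CACGTG and the metal response element core TGCNCNC (both strands) in 300 bases around the start site, as RefSeq gives them on build GRCr8. Among all 33469 promoters of that length, 0.439%, 20.7%, 6.42% and 49.6% held these motifs in that order. None of the promoters of Slc19a3, Tsc22d3, Sult1a1, Hif3a and Fkbp5 held the palindromic core, which says only that those letters are not in this window. Sult1a1 (chr1:190706063-190706362, minus strand) held 1 half-site, at position -89 from the start site, shown in capitals and read from the opposite strand.
Sult1a1: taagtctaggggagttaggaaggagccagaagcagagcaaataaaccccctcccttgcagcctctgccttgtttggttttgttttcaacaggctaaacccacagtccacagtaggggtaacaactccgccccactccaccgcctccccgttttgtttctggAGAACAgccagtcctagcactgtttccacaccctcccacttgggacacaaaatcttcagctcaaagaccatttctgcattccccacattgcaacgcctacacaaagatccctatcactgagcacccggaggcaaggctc

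On the list of metallothionein and metal transport genes, only a probe set of Mt2A was called. Mt2A had 2 probe sets, and the dimmer one, 10827989, was called at 0.40 (SE 0.09, adjusted p = 0.0475). The brighter one read 12.83, 12.85, 13.02 and 12.94 in the exposed females, against 12.57, 12.85, 12.41 and 12.54 in the controls, and missed the threshold at 0.32 (SE 0.07, adjusted p = 0.0682). Metallothionein copies are near-identical, so signal may be shared between them. Mt1 was at 0.22 (adjusted p = 0.667), Mt3, the brain form, at 0.03, and Mtf1, the zinc-sensing factor that switches metallothioneins on, at 0.00. Over 18 measured genes of metallothionein and metal transport, represented by their brightest probe sets, 12 lay above and 6 below the control mean, with a median of 0.04, 0 called by limma, and 4 higher and 1 lower at an unadjusted p under 0.05 (5.09% and 1.48% of all genes). The ferritin heavy chain Fth1, which stores iron, was at 0.12 (adjusted p = 0.295), and the copper-carrying oxidase Cp at 0.52 (SE 0.23, adjusted p = 0.799). Slc39a12, a zinc importer outside that list, read 6.66, 6.52, 6.66 and 6.73 in the exposed females, against 7.49, 6.70, 7.80 and 7.66 in the controls (-0.77, SE 0.18, adjusted p = 0.0736).

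The promoters of both metallothioneins are shown because they hold the metal response element core many times over. Mt1 (chr19:10832926-10833225, minus strand, GRCr8) held 7 matches of TGCNCNC and Mt2A (chr19:10838659-10838958, minus strand, GRCr8) held 5, with 1 E-box besides. At least 5 matches were found in 0.669% of all promoters and at least 7 in 0.108%. Capitals mark the matches on either strand and, in Mt2A, the E-box CACGTG.
Mt1: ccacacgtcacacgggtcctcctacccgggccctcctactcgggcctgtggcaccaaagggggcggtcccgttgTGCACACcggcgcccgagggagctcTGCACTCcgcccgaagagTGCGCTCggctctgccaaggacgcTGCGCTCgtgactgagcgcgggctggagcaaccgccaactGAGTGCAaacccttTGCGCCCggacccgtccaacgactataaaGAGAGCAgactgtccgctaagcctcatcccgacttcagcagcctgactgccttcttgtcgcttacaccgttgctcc
Mt2A: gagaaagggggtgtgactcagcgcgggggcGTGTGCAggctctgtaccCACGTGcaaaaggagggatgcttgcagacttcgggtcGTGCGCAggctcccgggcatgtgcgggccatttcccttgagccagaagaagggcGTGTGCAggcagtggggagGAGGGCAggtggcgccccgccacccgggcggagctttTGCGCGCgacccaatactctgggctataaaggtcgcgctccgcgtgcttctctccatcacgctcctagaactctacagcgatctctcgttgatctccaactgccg

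The remaining called genes have varied known roles. Fam83d, which anchors casein kinase on the mitotic spindle, read 8.35, 8.20, 8.23 and 8.11 in the exposed females, against 7.45, 7.80, 7.49 and 7.57 in the controls (0.64, SE 0.11, adjusted p = 0.00418). Lims2, an adaptor of integrin adhesion sites, read 8.39, 8.36, 8.43 and 8.30 in the exposed females, against 7.95, 7.87, 7.84 and 7.65 in the controls (0.54, SE 0.09, adjusted p = 0.00484). Both were set apart on every array and kept their call whichever array was left out. Ret, the receptor tyrosine kinase for GDNF family ligands, was higher by 0.55 (SE 0.10, adjusted p = 0.00763). Lyve1, a hyaluronan receptor of lymphatic vessels and border macrophages, was higher by 0.59 (adjusted p = 0.0248), while the scavenger receptor Cd163, also found on such macrophages, lay just outside at 0.64 (adjusted p = 0.0503).

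Ldaf1, which helps lipid droplets form, read 8.32, 8.95, 8.91 and 8.88 in the exposed females, against 8.28, 8.0, 8.21 and 8.10 in the controls. Replicate 1 of the exposed group lay barely above the highest control, and the difference was 0.62 (SE 0.13, adjusted p = 0.0254). Nat8f1, an acetyltransferase family member, read 7.47, 7.70, 7.45 and 7.56 in the exposed females, against 6.93, 7.06, 7.02 and 6.87 in the controls (0.58, SE 0.13, adjusted p = 0.0492). Nat8f1 lost its call whichever of the 8 arrays was left out (adjusted p = 0.0656 to 0.214). The other called genes that were higher were the transcription factor Tfcp2l1 (0.40), the mTORC2 component Prr5 (0.46), Gpatch4 (0.43), the pancreatic lipase Pnlip (0.52), the astrocyte connexin Gjb6 (0.42), the cyclin-dependent kinase partner Cables1 (0.40) and Lfng (0.39), besides Sbk1 (0.39) and Gpt2, alanine aminotransferase (0.24). Sbk1 and Gpt2 fell outside the naming rule and were named after their values were seen.

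No gene with a symbol was called lower. The 3 probe sets that fell carry no symbol. Probe set 10725748 read 3.49, 3.42, 3.30 and 3.51 in the exposed females, against 4.33, 4.13, 4.26 and 4.34 in the controls (-0.84, SE 0.14, adjusted p = 0.00234). Its signal was low in both groups, below the lowest array median of 6.96. The other two fell by less, probe set 10863960 at -0.53 and probe set 10782804 at -0.36, and none of the 3 had overlapping groups, as held on the lower side for 1.42% of all probe sets. Among the higher probe sets without a symbol, 10700576 read 7.99, 8.17, 7.83 and 7.84 in the exposed females, against 6.80, 6.67, 7.11 and 6.69 in the controls. It differed by 1.14 (SE 0.16, adjusted p = 0.000203) and kept its call in all 18 alternative fits tried on it.

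Marker lists of hippocampal cell types showed mostly small differences, as the plot of list members shows. All genes together had a median of 0.01, with 55.9% above 0, and at an unadjusted p under 0.05 they were higher in 5.09% and lower in 1.48%. Oligodendrocyte precursor markers lay higher in 6 of 6 (median 0.19, 0 called by limma, 4 with an unadjusted p under 0.05, beside 5.09% of all genes), with the transcription factor Olig1 at 0.28 (adjusted p = 0.203) and the receptors Gpr17 and Pdgfra at 0.21 and 0.18. The mean of this list was 9.32, 9.26, 9.22 and 9.21 on the exposed arrays, against 9.14, 9.10, 9.04 and 9.03 on the control arrays. Myelin genes were higher in 11 of 12 (median 0.17, 0 called), with 7 higher at an unadjusted p under 0.05 (5.09% of all genes), among them the axon-contact protein Mag (0.24), Mal (0.28) and the acetylaspartate-cleaving enzyme Aspa (0.35). Exposed replicates 1 and 2 carried most of that myelin difference, with list means of 11.33 and 11.26 beside 10.91 and 11.03 in exposed replicates 3 and 4, against 10.944 to 11.001 in the controls.

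**Figure D3:**
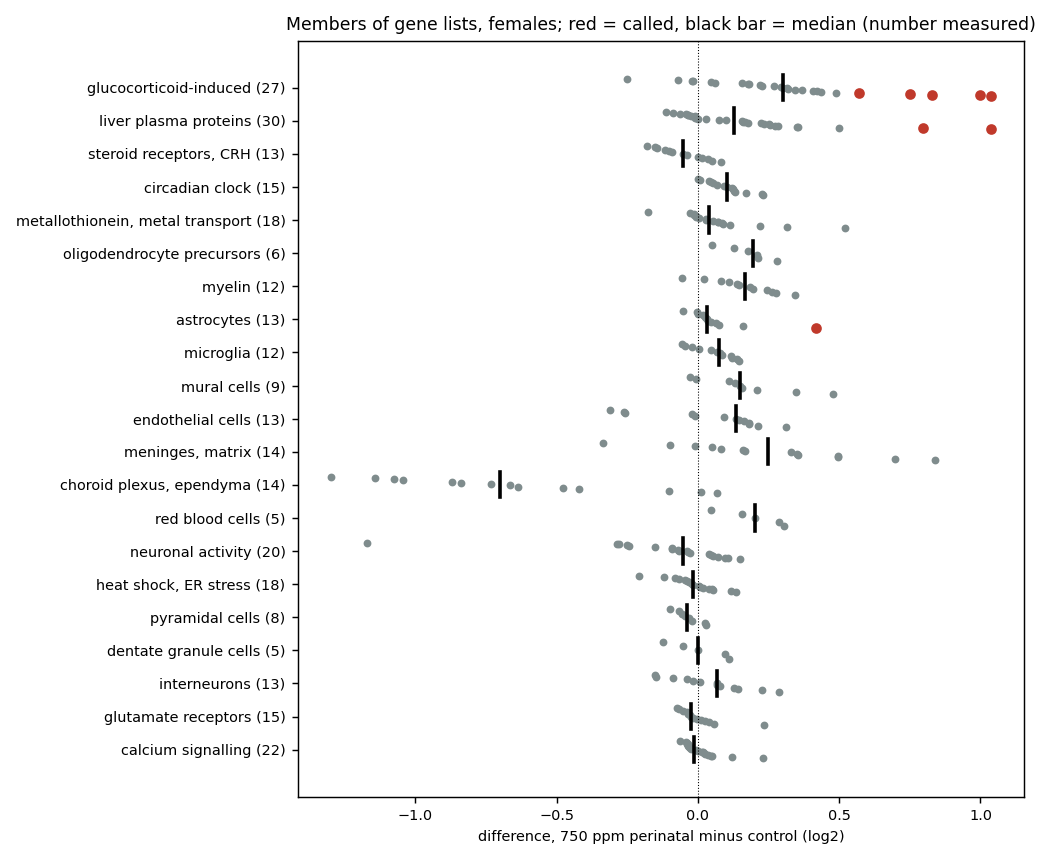
Difference between exposed and control females (horizontal axis, log2, exposed minus control) for each measured member of 21 gene lists (rows). Grey points were not called, red points were called, and black bars are medians, which lie at 0.30 for the glucocorticoid-induced list and at -0.70 for the choroid plexus list.

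Neuronal lists lay close to the median of all genes. Pyramidal cell markers had a median of -0.04, dentate granule cell markers 0.00, interneuron markers 0.07, ionotropic glutamate receptors -0.03 and calcium signalling genes -0.02, with 0 called by limma in each. At an unadjusted p under 0.05 these 5 lists held 0, 0, 2, 0 and 1 higher genes and 1, 0, 0, 0 and 0 lower genes. The 2 interneuron genes were 15.4% of their list and the calcium signalling gene 4.55%, beside 5.09% of all genes higher. The pyramidal gene was 12.5% of a list of 8, beside 1.48% of all genes lower. The obligatory NMDA receptor subunit Grin1 was at -0.04, the kinase Camk2a at -0.04 and the vesicular glutamate transporter Slc17a7 at -0.03. Genes induced by neuronal activity were lower in 13 of 20 (median -0.05, 0 called). Of these, 2 were lower at an unadjusted p under 0.05 (10% of the list, beside 1.48% of all genes). Npas4, a transcription factor induced by calcium entry, read 7.77, 8.61, 8.36 and 8.50 in the exposed females, against 9.72, 9.67, 9.20 and 9.34 in the controls. Its groups did not overlap, but its spread between arrays across the study was large (-1.17, SE 0.42, adjusted p = 0.569).

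The lists of choroid plexus and meningeal genes varied widely between arrays of a group. Choroid plexus and ependymal genes had a mean of 9.58, 8.38, 7.13 and 6.90 on the exposed arrays, against 6.68, 9.58, 9.21 and 9.15 on the control arrays. The groups overlapped, 12 of 14 members lay below the control mean (median -0.70), and 0 were called by limma or had an unadjusted p under 0.05. Meningeal and matrix genes were higher in 11 of 14 (median 0.25, 0 called by limma), 2 of them at an unadjusted p under 0.05 (5.09% of all genes). The list had means of 8.78, 8.62, 9.08 and 8.40 on the exposed arrays, against 7.81, 8.40, 8.63 and 9.01 on the control arrays. Thalamus and habenula genes were higher in 5 of 6 (median 0.21) and striatum genes in 7 of 9 (median 0.08), with 0 called by limma in either. At an unadjusted p under 0.05, 1 and 0 of them were higher (5.09% of all genes). The striatum list averaged 7.81, 7.83, 7.78 and 7.85 on the exposed arrays, against 7.71, 7.78, 7.76 and 7.75 on the control arrays, and the groups just overlapped. The part of these lists in the called differences was not tested.

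**Figure D4:**
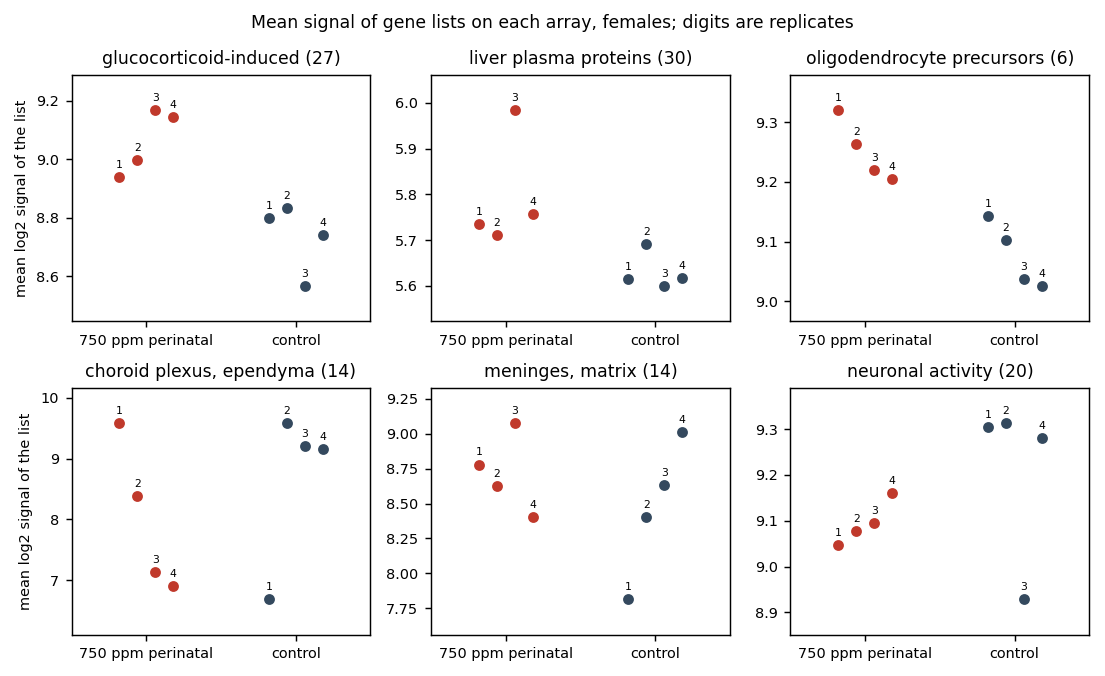
Mean log2 signal of 6 gene lists (vertical axes) on each array of exposed and control females, numbered by replicate, with the number of measured genes in brackets. The groups do not overlap for the glucocorticoid-induced, liver and oligodendrocyte precursor lists, and they overlap for the choroid plexus, meningeal and activity lists.

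Compared with females exposed perinatally to 250 ppm, the 750 ppm females differed at 25 probe sets (0.0856%), 22 of them higher (0.0753%). Because the 250 ppm arrays lie in another title-number range, dose and range cannot be told apart in this comparison. Alb averaged 7.12 at 750 ppm and 5.97 at 250 ppm (difference 1.15, SE 0.14, adjusted p = 8.92e-06), and Mup probe set 10877295 averaged 5.84 at 750 ppm and 3.96 at 250 ppm (1.88, SE 0.18, adjusted p = 4.18e-08). These SEs pool all groups, and the SD was larger at 750 than at 250 ppm (Alb 0.49 and 0.16, Mup probe set 0.74 and 0.08). Sult1a1 (0.86, adjusted p = 0.0156), Tsc22d3 (0.51, adjusted p = 0.0417), Nat8f1 (0.67, adjusted p = 0.0219), Ret (0.52, adjusted p = 0.0232), Mt1 (0.41, adjusted p = 0.0428) and the brighter Mt2A probe set (0.36, adjusted p = 0.0278) were also higher at the higher dose. For both metallothioneins the 250 ppm females lay below the controls, with Mt1 averaging 10.59 at 750 ppm and 10.17 at 250 ppm, against 10.37 in controls, and Mt2A 12.91 and 12.55, against 12.59. Neither probe set passed against controls. Gpd1 averaged 10.84 at 750 ppm and 10.27 at 250 ppm, and that difference did not pass (0.57, adjusted p = 0.389).

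Compared with females given 750 ppm after birth only, 16 probe sets (0.0548%) differed, 14 of them higher in the perinatal group (0.0479%). Here too the title-number range differs, so window and range cannot be told apart. Alb was higher by 1.07 (SE 0.14, adjusted p = 2.77e-05), Apoc3 by 0.75 (adjusted p = 0.00424), Apoh by 0.48 (adjusted p = 0.00976) and Tsc22d3 by 0.60 (adjusted p = 0.0069). The SE of Alb pools all groups, while its SD was 0.49 in the perinatal and 0.13 in the postnatal group. Nat8f1 averaged 7.55 in the perinatal group and 6.38 in the postnatal group (1.17, SE 0.13, adjusted p = 8.43e-07), against 6.97 in female controls, which lay between them. Slc19a3, Gpd1 and Sult1a1 were above the postnatal group by 0.50, 0.66 and 0.42 without passing the test (adjusted p = 0.739, 0.452 and 0.739).

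In males the same dose and window gave 17 called probe sets against male controls (0.0582%). The groups compared share no array with those in females, but both tests came from the same fit and share its estimate of the spread. Ldaf1 (0.64, SE 0.13, adjusted p = 0.0285) and Tfcp2l1 (0.37, SE 0.08, adjusted p = 0.0353) were the 2 probe sets called in both sexes. Of the 43 probe sets called higher in females, 29 lay above the male control mean in exposed males, as did 57.7% of all probe sets. Alb was at 0.11 (adjusted p = 0.881) and Mup probe set 10877295 at -0.16 (adjusted p = 0.859) in males, while Gpd1 was at 0.38 (adjusted p = 0.661) and Slc19a3 at 0.29 (adjusted p = 0.75).

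The difference between the sexes itself passed the limma interaction test for 6 probe sets (0.0205%), with sex and title-number range not separable. The test includes the 3 control arrays whose Eif2s3 signal did not match their label. Without these arrays 2 probe sets were called. A fit of the compared groups only called 3, of which 1 was among the 6. Of the 6, 4 were Mup probe sets, with 10877295 higher by 1.93 in the female than in the male contrast (SE 0.25, adjusted p = 0.000121). That SE pools all groups, while the SD of 10877295 was 0.74 in the exposed females and 0.08 in the exposed males. Nat8f1 differed by 0.58 in females and -0.56 in males (interaction 1.14, SE 0.18, adjusted p = 0.00399). Id1, an inhibitor of helix-loop-helix transcription factors, differed by 0.23 in females and -0.38 in males (interaction 0.60, SE 0.11, adjusted p = 0.0095). For the glucocorticoid-induced genes the interaction did not pass, with Tsc22d3 at 0.51 (adjusted p = 0.452) and Gpd1 at 0.66 (adjusted p = 0.666).

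Across all 10 groups the called genes fell into different patterns. Mup probe set 10877295 averaged 5.84 ± 0.74 in the perinatal 750 ppm females and between 3.78 and 4.08 in each of the other nine groups, and Alb averaged 7.12 ± 0.49 there and between 5.91 and 6.21 elsewhere (SD, n = 4). Ldaf1 averaged 8.42 to 9.21 in the 8 exposed groups, against 8.15 in female and 8.14 in male controls. Lims2 averaged 7.956 to 8.368 in the exposed groups, against 7.829 in female and 7.744 in male controls. Fam83d averaged 7.715 to 8.221, against 7.577 and 7.585. Tfcp2l1 averaged 6.80 to 7.08, against 6.625 and 6.71, with its highest mean in the perinatal 750 ppm males. Gpd1 averaged 9.77 to 10.84 in the exposed groups, against 9.80 in female and 9.58 in male controls, so that it was high in several exposed groups and highest in the perinatal 750 ppm females. Tsc22d3 averaged 8.57 in these females and 7.84 to 8.19 in the other nine groups.

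**Figure D5:**
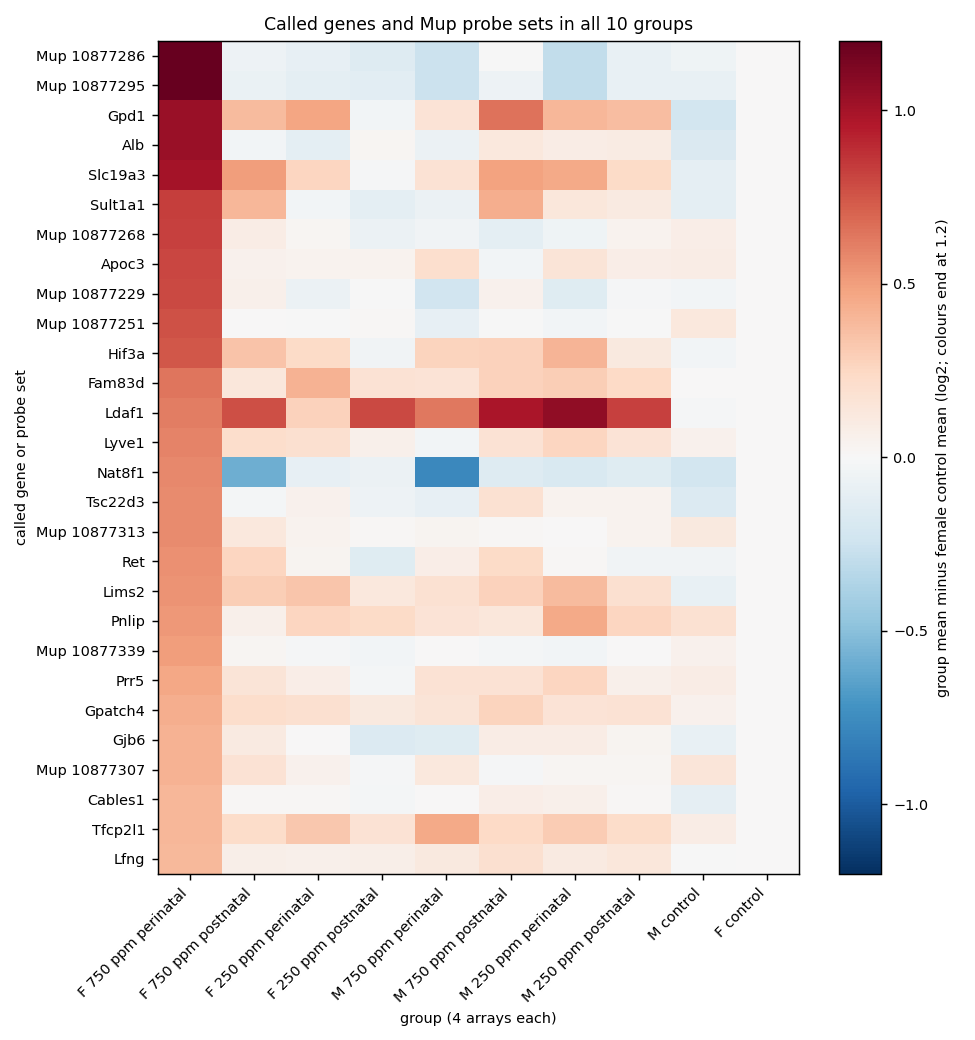
Group mean minus the female control mean (colour, log2, ending at 1.2) for the called genes and Mup probe sets named by the rule (rows) in all 10 groups of 4 arrays (columns). The Mup probe sets and Alb are raised in the first column, while Ldaf1, Lims2, Fam83d and Tfcp2l1 are raised in all 8 exposed groups.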

How the data were processed

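Log2 signals were used as deposited by the authors, who made them with RMA (background correction, quantile normalization and probe summary). Per the submitters' processing notes the software was RMA and Partek, with no version given. Values ran from 2.07 to 13.93 and array medians from 6.96 to 7.06. Of 29214 probe sets, 15316 carried 1 gene symbol, 317 several and 13581 none, by the platform annotation, with 15291 matched to RefSeq on GRCr8.

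All 40 arrays entered 1 fit in limma 3.58.1 (R 4.3.3; statmod 1.5.0) that estimated 10 group means, followed by empirical Bayes moderation with a variance trend. The p-values were two-sided, adjusted by Benjamini-Hochberg over all probe sets within a contrast, and called under 0.05. The steps were tested on simulated data with independent normal noise of the same spread in every group. Of 100 probe sets shifted by 0.5 log2, 84 were found, and of 100 shifted by 1 log2, 97 were found, with 10 false calls. Groups of unequal spread were not simulated.

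Each of 14511 genes was represented by its brightest probe set. Of 545 entries on 36 gene lists, 476 were measured. Genes were named by a rule on the size of called differences (up to 20 higher), the smallest p in each list and membership in the liver, glucocorticoid, steroid, metal and sex-linked lists. Members and lists were chosen with earlier results of these data known. Promoters matched for 7 of 8 genes looked up, and Gpd1 is named only. Other settings tried were a filter on the dimmest 40% of probe sets, further quantile normalization, compared groups only, array weights, no trend, and leaving out arrays or the liver and Mup probe sets. Figures were drawn with matplotlib 3.10.9. The number of arrays limited the precision.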

Additional observations from a re-analysis of the deposited data

Results flagged for a closer look

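Over 103 named or called genes and probe sets and 36 lists, 278 groups of 4 values were examined for a single array far from the other three, and 22 had one. Chance alone sets about 1 group in 20 apart.

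Exposed replicate 3 stood above the other exposed arrays for the Mup probe sets 10877295 (6.94, next 5.62), 10877286 (7.35, next 6.01), 10877229 (5.38, next 4.57), 10877313 (4.77, next 4.11) and 10877268 (5.36, next 4.35). It did so as well for Ahsg (5.84, next 5.28), for the mean of the liver list (5.98, next 5.76) and for the mean of the pericyte and smooth muscle list (8.56, next 8.36). For Klf9 the same array was the lowest (10.02, next 10.17). Exposed replicate 1 was lowest for Ldaf1 (8.32, next 8.88) and for the dentate granule cell list (8.27, next 8.41) and highest for probe set 10717170, which carries no symbol (9.61, next 9.5). Exposed replicate 4 was lowest for the interferon and immune list (6.89, next 6.98).

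Control replicate 1 was lowest for Sult1a1 (8.26, next 8.74), for the choroid plexus genes Kl (5.99, next 9.55) and Enpp2 (10.69, next 12.09), for the choroid plexus list (6.68, next 9.15) and for the thalamus and habenula list (7.99, next 8.18). It was highest for Tsc22d3 (8.10, next 7.99). Control replicate 3 was lowest for Dusp1 (9.40, next 10.24), Junb (8.34, next 8.91) and the list of activity-induced genes (8.93, next 9.28). These 2 control arrays are also those whose Eif2s3 signal lay in the male range.

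The difference against controls itself differed between females and males at 6 probe sets in the limma interaction test, and at 2 without the 3 mismatched control arrays. With all arrays, the difference was larger in females by 1.93 for Mup probe set 10877295, 1.98 for 10877286, 0.996 for 10877229, 0.99 for 10877251, 1.14 for Nat8f1 and 0.60 for Id1.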

How the results depend on the processing

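No paired analysis was possible because the labels give replicates no numbers that pair animals across groups. Over the called genes and probe sets of the comparison with female controls, 492 of the results under other settings kept their call, 314 lost it and 0 reversed. The count of 46 became 14 in a fit of the compared groups only, 112 with array weights, 6 without the 3 mismatched control arrays, 24 without liver and Mup probe sets and 114 against all 8 control arrays. It was also 6 without both the array of highest liver signal and the mismatched controls, a setting chosen after seeing the data. Leaving out 1 array gave 17 to 50. The count of 25 against 250 ppm females became 16 without the dimmest probe sets, 10 in the compared groups only, 49 with array weights and 2 without liver and Mup probe sets, with 8 to 26 when 1 array was left out. The count of 16 against postnatal females became 8, 7, 34 and 7 under the same settings, with 12 to 20. The 6 of the interaction became 2 without the dimmest probe sets, 3 in the compared groups only, 2 without mismatched controls and 2 without liver and Mup probe sets, with 5 to 13, the 13 without male 750 ppm perinatal replicate 3. In the fits of the compared groups only, all 14 against female controls were among the original calls. Of the 10 against 250 ppm females 5 were, of the 7 against postnatal females 4, and of the 3 of the interaction 1. Fits with fewer arrays also have fewer degrees of freedom. The causes of the changed counts, this one included, were not tested.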

Other observations

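Over the 8 arrays, the genes with values most like those of Tsc22d3 were Tfcp2l1 (Pearson r = 0.985), Slc19a3 (0.981) and Gpat3 (0.976). Those most like Alb were Gjb6 (0.98), Pvr (0.977) and Pdgfra (0.977). The plasma protein genes Mug1l1 (0.969), Gc (0.964) and Apoc3 (0.951) were also among the 10 genes most like Alb. The points are 2 groups of 4 arrays, so a shared group difference alone gives a high r, and the values are a description only.

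Sult1a1 and Eif3c, a translation initiation factor subunit just outside the threshold, are neighbours on chromosome 1, with 6 protein-coding genes between them in the RefSeq annotation of GRCr8. Eif3c read 10.39, 10.41, 10.38 and 10.48 in the exposed females, against 10.19, 10.17, 10.18 and 10.17 in the controls, with no overlap (0.23, SE 0.05, adjusted p = 0.0503 by limma). Among the 26 genes placed, no other pair was within 20 genes of each other. The pair was noticed after its values were seen.

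The next genes outside the threshold were Cdc14a, a phosphatase of the cell cycle, at 0.27 (adjusted p = 0.0678) and Slitrk6, a membrane protein of neurite outgrowth, at 0.52 (adjusted p = 0.0839). Of the clock genes, 14 of 15 lay above the control mean (median 0.10, 0 called by limma), with the output factor Dbp at 0.23 (adjusted p = 0.109). At an unadjusted p under 0.05, 2 clock genes were higher (13.3% of the list, beside 5.09% of all genes). Red blood cell genes lay above the control mean in 5 of 5 (median 0.20, 0 called by limma, 0 with an unadjusted p under 0.05).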
